A study of Mus musculus with 32 samples.

Results

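Untreated E14 mouse embryonic stem cells at passages 12 and 14 were compared with the same cells at passages 4 and 6. The 8 libraries are set by their labels (untreated, 1 of these 4 passages, 2 libraries each), and they are 8 of the 32 libraries of the series. The comparison itself was chosen with earlier results of these data known. The series followed E14 cells through 8 passages, from 0 to 14, with and without T0901317, a small molecule that activates the liver X receptors, and its title places it in work on nuclear receptors and expanded pluripotency. E14 is an established mouse embryonic stem cell line, labelled wild-type here. Both groups were untreated controls, and passage was the only difference between them in the labels. Anything else that changed along with passage cannot be told apart from it. All cells grew on gelatin, without feeder cells, in 15% serum with 1000 U/mL leukemia inhibitory factor (LIF), 3 µM of the GSK3 inhibitor CHIR99021 and 1 µM of the MEK inhibitor PD0325901. The cells compared were never given T0901317, which the treated arm received at 10 µM. Whether each pair of libraries came from separate cultures is not in the labels, so p-values measure only the spread between these samples, which may be technical.

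Embryonic stem cells are kept by repeated splitting, and a culture can shift in gene expression as it is carried on. Serum, LIF and the pair of inhibitors hold most cells in the naive state, marked by Nanog, Esrrb, Klf4 and Zfp42. A small, changing share of cells in such cultures is known to turn on genes of the cleaving embryo, among them the Zscan4 cluster, and to turn them off again. In bulk RNA a smaller share of cells with a transcript and less of it per cell cannot be told apart.

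Polyadenylated RNA was measured as counts per gene, and the 8 libraries held 24989652 to 45818054 counts. Levels are given in CPM (counts scaled to a fixed library total), scaled with TMM over all 32 libraries, and changes as log2 fold changes of passages 12 and 14 over 4 and 6 from edgeR's quasi-likelihood test, with its standard error (SE) and adjusted p, called at an adjusted p under 0.05. The 5 stem cell markers Pou5f1, Nanog, Sox2, Zfp42 and Esrrb were each at 367 CPM or more in every library and together at 4925 to 5374 CPM early and 4634 to 4809 CPM late. The 5 trophectoderm markers summed to 28.2 to 38.2 CPM early and 31.97 to 34.6 late, the 5 of primitive endoderm to 8.38 to 12.1 and 9.83 to 11.5, and the 4 of mesoderm to 6.11 to 6.86 and 5.25 to 6.30. The 4 neuroectoderm markers summed to 68.0 to 85.9 CPM early and 93.8 to 101.7 late, nearly all from Nestin (Nes). The 7 fibroblast markers summed to 6.21 to 7.42 CPM early and 8.69 to 11.7 late, with Dcn and Postn at 0 in all 8. Ribosomal protein transcripts took 6.74% to 7.72% of counts early and 6.89% to 7.10% late, and histone transcripts 0.00298% to 0.00341% early and 0.00211% to 0.00252% late. In a principal component analysis of the 8 libraries, the first component (40.5% of the variance) ran from passage 6 (25.2 and 28.5) to passage 14 (-18.3 and -20.3). Passages 4 and 12 lay between, at -5.15 to -2.62. The second component (21.4%) set passage 4 apart. The median gene had an SD of 0.066 on the log2 scale between the 2 libraries of a passage and of 0.10 between the 2 passages of a group.

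The later passages had more transcript of 8 of 30 matrix and adhesion genes, and less of 17 of 26 2-cell-like genes and of 3 broadly expressed Y-linked genes. Among the rises, P-cadherin (Cdh3) gained by 1.11 on the log2 scale and the collagen V chain Col5a1 by 0.58. Among the falls, the DNA sensor Aim2 fell by 1.28, the Zscan4 cluster member Zscan4a by 0.82 and the Y-linked helicase Ddx3y by 0.60. Most changes were small: of the 973 genes called, 732 changed by less than 0.5 on the log2 scale, and 33 rose and 7 fell 2-fold or more.

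Of 13986 genes tested, 473 rose and 500 fell, which is 3.38% and 3.58% of those tested and 6.96% in either direction, and the median of all genes was -0.00496 (edgeR, 4 libraries against 4). The 4 later and 4 earlier libraries did not overlap for 467 of the genes that rose and 496 of those that fell, against 8.07% (higher) and 8.84% (lower) of all genes tested. This is not separate support for the calls, which come from the same 8 libraries. The same holds wherever a called gene below is said not to overlap between the groups. Genes named below for the largest rises and falls were also required to have no overlap. Before adjustment, 3582 of the 13986 genes had a p under 0.05 in either direction in edgeR's 4 against 4 test. With the libraries of a passage summed and passage as the unit (2 against 2), edgeR called 0 genes, and 1340 had an unadjusted p under 0.05. The 4 against 4 calls therefore rest on 2 passages a side. With the passage kept as a correlated block, limma voom called 77 higher and 71 lower (correlation within a passage 0.586).

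Most calls were lost when both libraries of passage 14 were left out, which leaves 2 libraries against 4. Then 2 genes rose (Col5a1 and Lefty2) and 1 fell (Ddx3y), without passage 12 the counts were 192 and 194, without passage 6 they were 803 and 889, and without passage 4 they were 2573 and 2603. Leaving out 1 library gave 116 and 107 (replicate 1 of passage 14), 99 and 89 (replicate 2 of 14), 274 and 272 (replicate 1 of 12), 259 and 226 (replicate 2 of 12), 277 and 294 (replicate 1 of 6) or 224 and 245 (replicate 2 of 6). Between single passages, where the test measures only the spread between 2 libraries, more genes were called, and the 2 early passages differed from each other in 2866 genes higher and 2663 lower at passage 6. Passages 12 and 14 differed in 419 higher and 509 lower. Of the 973 genes called 4 against 4, 895 were called in the same direction between passages 12 and 6 alone and 677 between passages 12 and 4 alone. These contrasts take no level from passage 14, though its libraries were in the fit that gave the spread. A gene called in the same direction in each of the 4 contrasts of a later with an earlier passage was found 273 times for higher and 312 times for lower (1.95% and 2.23% of genes tested), and 260 and 299 of these were also called 4 against 4. Of the 89 called genes that the naming rule picked, 72 were called in each of those 4 contrasts, 44 with passage as a correlated block, 43 with any 1 library left out and 3 without passage 14. All these contrasts and fits use libraries that gave the 4 against 4 calls, so their agreement is not separate support.

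**Figure D1:**
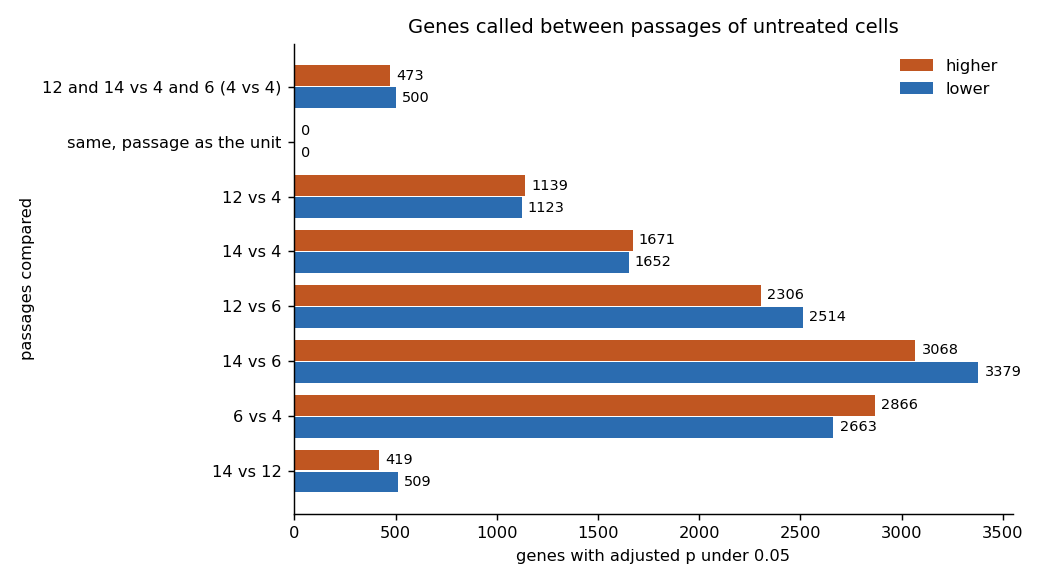
Number of genes called higher (orange) or lower (blue) at an adjusted p under 0.05 (x axis) in each comparison of untreated passages (y axis). The comparison of passage 14 with 6 has the longest bars (3068 and 3379), passage 6 differs from 4 in 2866 and 2663 genes, and with passage as the unit the bars are at 0.

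Promoter sequence is shown for 3 genes whose transcripts moved in the comparison: 2 members of the Zscan4 cluster, which fell together, and H2-Eb1, the named gene with the largest log2 rise among those that averaged 1 log2 CPM or more. Each is the 250 bases before the RefSeq start on GRCm38.p6, read 5′ to 3′ on the gene's own strand. The genome build of the deposited counts (mm9) is another, and these positions were not used with it. Zscan4c lies on the plus strand at chr7:11005495-11005744, Zscan4d on the minus strand at chr7:11166149-11166398 and H2-Eb1 on the plus strand at chr17:34305617-34305866. Capitals mark a TATAAA match in the Zscan4 promoters and a CTGATTGG match in that of H2-Eb1, the letters of the Y box known from class II genes.
Zscan4c: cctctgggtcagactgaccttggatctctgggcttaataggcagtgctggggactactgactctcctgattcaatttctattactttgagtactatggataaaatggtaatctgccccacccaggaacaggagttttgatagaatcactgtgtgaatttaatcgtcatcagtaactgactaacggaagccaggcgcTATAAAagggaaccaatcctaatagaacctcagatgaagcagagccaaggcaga
Zscan4d: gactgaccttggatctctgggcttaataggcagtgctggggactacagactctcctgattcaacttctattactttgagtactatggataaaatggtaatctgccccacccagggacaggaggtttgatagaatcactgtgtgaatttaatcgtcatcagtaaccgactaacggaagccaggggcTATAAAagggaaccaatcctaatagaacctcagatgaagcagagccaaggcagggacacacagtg
H2-Eb1: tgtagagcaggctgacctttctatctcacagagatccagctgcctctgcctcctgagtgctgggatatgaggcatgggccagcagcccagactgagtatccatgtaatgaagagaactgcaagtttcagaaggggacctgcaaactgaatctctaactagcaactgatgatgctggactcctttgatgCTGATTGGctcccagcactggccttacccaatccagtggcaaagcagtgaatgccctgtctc

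Aligned over 239 bases, the promoters of Zscan4c and Zscan4d had 232 identical bases (97.1%). Each held 3 CG dinucleotides and H2-Eb1 held 0, against a median of 6 in the 27025 promoters of the table. TATAAA was found, on either strand, in 12.97% of all these promoters and CTGATTGG in 4.07%. Both were looked for after the sequences had been seen. The motifs CACGTG (6.05% of promoters), TGACGTCA (1.62%) and TGACTCA (4.43%) were in none of the 3, which says only that these letters are not in these windows.

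Most of the tested 2-cell-like genes fell. They are transcripts of the 2-cell embryo that mouse stem cell cultures express in rare cells, and include the Zscan4 cluster, whose proteins are linked to telomere upkeep, the Usp17l deubiquitinase copies and the retrotransposon-linked Zfp352. Of 26 tested members 17 fell and 0 rose in edgeR's test (19 and 0 of 29 in DESeq2, which tested more members), against 3.58% of all genes falling, and 24 had a negative change with an unadjusted p under 0.05 and 0 a positive one. The median of the list was -0.70, and in the single contrasts it lay at -0.59 (12 minus 4), -0.99 (14 minus 4), -0.42 (12 minus 6) and -0.78 (14 minus 6). With 1 library left out, 7 to 14 members fell. The low counts were 7 without replicate 1 and 9 without replicate 2 of passage 14, and 0 fell without both (median -0.51). With passage as the unit 0 fell, and with passage as a correlated block 7 did.

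Zscan4a was at 41.6 and 44.1 CPM (passage 4), 33.0 and 35.6 (passage 6), 23.8 and 22.0 (passage 12) and 21.1 and 20.3 (passage 14). All 4 later libraries were below all 4 earlier ones, and passage 4 was above passage 6. The log2 fold change was -0.82 (SE 0.09, adjusted p = 0.00154 by edgeR's quasi-likelihood test, 0.405 with passage as the unit). Zscan4c was at 41.8 and 43.4 CPM, then 32.3 and 37.6, 27.4 and 26.1, and 22.0 and 21.7 at passages 4, 6, 12 and 14. It fell by 0.67 (SE 0.10, adjusted p = 0.00525). Zscan4d fell by 0.77 and Zscan4f by 0.65, and the adjusted p of Zscan4f was 0.0540 without replicate 1 of passage 14. These genes are near-identical copies, so the share of reads given to each depends on how the authors' counting divided them.

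Outside the cluster, Tmem92, a membrane protein gene of the 2-cell list, was at 14.4 and 14.5 CPM (passage 4), 11.4 and 11.8 (passage 6), 8.45 and 8.21 (passage 12) and 6.93 and 7.52 (passage 14). The groups did not overlap, and it fell by 0.74 (SE 0.10, adjusted p = 0.00389, edgeR). Usp17lc fell by 0.80 and the placeholder-named Gm5662 by 0.71. Calls of Tdpoz3, Zfp352, Arg2 and Gm2022 were each lost in 7 of the 8 fits that left out 1 library. Over all untreated passages the course was not a steady fall: Zscan4c had a mean of 5.84 CPM (passage 0), 16.6 (passage 2), 32.5 (passage 8) and 40.7 (passage 10). The early side of the comparison thus held the highest mean of the 8 passages, 42.6 CPM (passage 4).

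**Figure D2:**
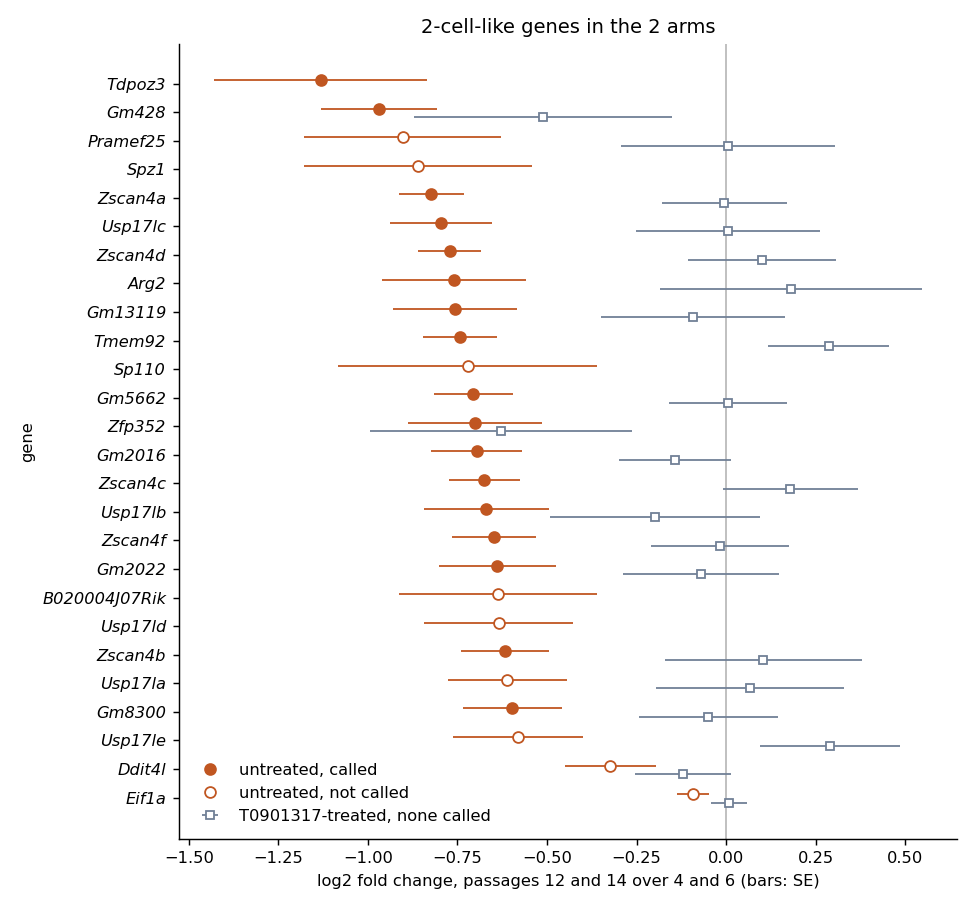
log2 fold change of passages 12 and 14 over 4 and 6 (x axis, bars are SE) for the 26 tested 2-cell-like genes (y axis), in untreated cells (orange, filled where called) and in T0901317-treated cells (grey squares, where tested). All 26 untreated values lie below 0 and 17 are called, while the treated values of 21 genes lie on both sides of 0 with a median of 0.00447.

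Genes of the extracellular matrix and of adhesion rose more often than they fell: 8 of 30 tested rose and 1 fell (background 3.38% and 3.58%), with a median of 0.12. The list median was positive in each single contrast, at 0.05 and 0.04 against passage 4 and at 0.24 and 0.19 against passage 6. With 1 library left out 4 to 9 rose, with 4 and 5 when that library was replicate 2 or 1 of passage 14, and 1 rose without both. With passage as a correlated block 6 rose and 0 fell. Cdh3, the adhesion molecule P-cadherin, was at 5.82 and 6.09 CPM (passage 4), 4.47 and 5.25 (passage 6), 11.9 and 11.0 (passage 12) and 11.3 and 12.6 (passage 14). The 4 later libraries were all at 11.0 CPM or more and the 4 earlier ones all at 6.09 or less. Its mean went from 5.41 ± 0.72 to 11.7 ± 0.70 CPM (SD, n = 4), a log2 change of 1.11 (SE 0.10, adjusted p = 0.000522, edgeR). Passages 8 and 10, outside the comparison, lay between at means of 8.96 and 7.72 CPM.

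Col5a1, a chain of fibrillar collagen V, was at 31.5 and 32.2 CPM (passage 4), 30.6 and 30.04 (passage 6), 46.5 and 46.3 (passage 12) and 45.1 and 47.2 (passage 14). Both early passages were alike and both late passages were alike. It rose by 0.58 (SE 0.04, adjusted p = 0.000256, edgeR) and was 1 of the 3 genes still called without passage 14 (adjusted p = 0.0333). The chains of basement membrane collagen IV rose too, Col4a1 by 0.46 (SE 0.05, adjusted p = 0.00166) and Col4a2 by 0.65 (SE 0.12, adjusted p = 0.0137). The call of Col4a2 was lost in 2 of the 8 fits with 1 library left out. Perlecan (Hspg2, 0.32), laminin α5 (Lama5, 0.22), laminin β2 (Lamb2, 0.27) and the matrix protein Sparc (0.20) also rose, with calls lost in 1, 0, 5 and 4 of those fits, and the protease inhibitor Timp1 fell by 0.17, a call lost in all 8.

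Col4a1, Col4a2 and Sparc are also counted with the primitive endoderm genes, which secrete basement membrane in the embryo. Of 16 tested members of that list 5 rose and 0 fell (6 and 1 at an unadjusted p under 0.05), against 3.38% and 3.58% of all genes. The other 2 that rose were the nuclear receptor Hnf4a, up 0.57 (SE 0.09, adjusted p = 0.00749), and the collagen chaperone Serpinh1, up 0.27. With either library of passage 14 left out the rises were 2. The regulators that define this lineage, Gata4, Gata6, Sox17 and Pdgfra, were not called, and Gata6 was at 0.82 to 1.53 CPM early and 1.02 to 1.62 late. Of 6 tested fibroblast genes 1 rose, the surface protein Thy1, by 0.73, from 3.09 to 4.29 CPM early to 4.96 to 7.29 late, a call lost in 2 of the 8 fits with 1 library left out and with passage as a correlated block (adjusted p = 0.103 in limma voom). The list was not of 1 direction: 3 of the 6 had a positive change. Its medians were -0.07 and -0.02 against passage 4 and 0.35 and 0.56 against passage 6. The collagen I chain Col1a1 was at 0.58 (SE 0.16, adjusted p = 0.0537, edgeR). The other chain, Col1a2, was at -0.55 (SE 0.44, adjusted p = 0.457) and at 1.07 CPM or less in every library. Neither was called. Whether other cell types in the dish had a part in these changes was not tested. The intermediate filament gene Nes, counted as a neuroectoderm marker, rose by 0.43 (SE 0.07, adjusted p = 0.00904), while Sox1 was at 8.38 to 9.87 CPM early and 7.99 to 9.40 late.

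**Figure D3:**
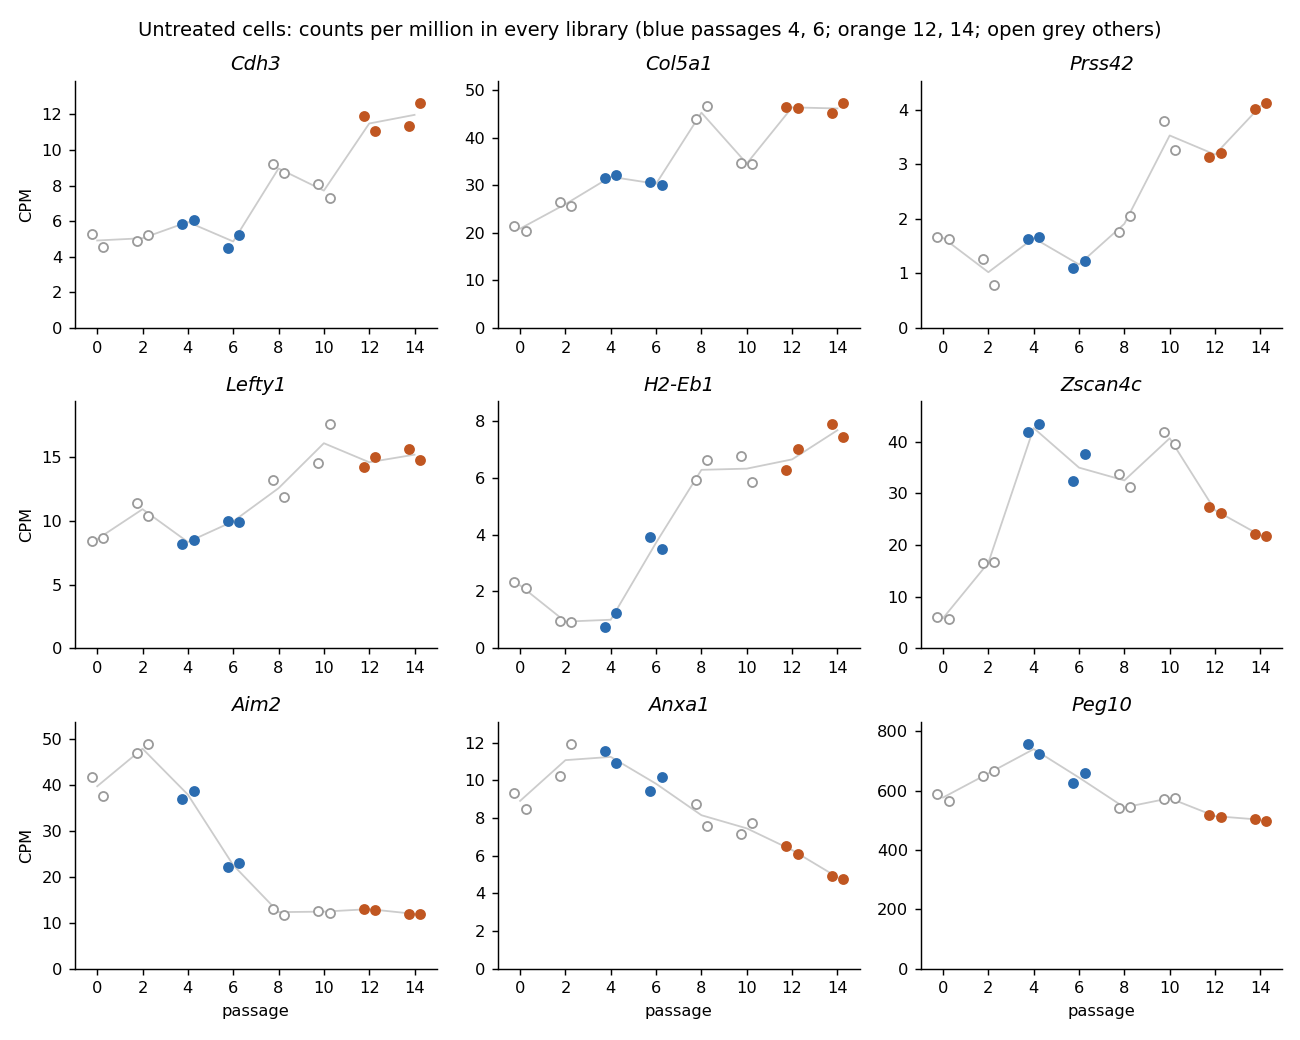
CPM (y axis) against passage (x axis) in every untreated library for 9 genes, with passages 4 and 6 in blue, 12 and 14 in orange, the other passages as open grey points and a line through the passage means. The blue and orange points do not overlap in any panel, which the naming rule required of genes picked for the largest rises and falls. Zscan4c is at 5.84 CPM (passage 0) and 42.6 (passage 4), while Aim2 reaches its late level by passage 8.

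Apart from the placeholder symbols, the gene with the largest rise among those named by the rule and above 1 log2 CPM was H2-Eb1, the beta chain of a class II antigen-presenting molecule. It was at 0.75 and 1.26 CPM (passage 4), 3.92 and 3.51 (passage 6), 6.28 and 7.0 (passage 12) and 7.89 and 7.44 (passage 14). Passage 6 lay between passage 4 and the late passages. It rose by 1.59 (SE 0.36, adjusted p = 0.0275, edgeR), a call lost in 4 of the 8 fits with 1 library left out, with 0.0907 without replicate 2 of passage 14. H2-Ab1, another class II beta chain, rose by 1.19 (SE 0.25, adjusted p = 0.0217) from 0.94 to 2.36 CPM early to 3.32 to 5.14 late, and the peptide transporter gene Tap1 rose by 0.50, calls lost in 3 and 2 of those fits. Of the 24 tested genes of the interferon and MHC list 4 rose and 1 fell, against 3.38% and 3.58% of all genes. The falling one was Xaf1 (-0.39), an interferon-induced gene. With either library of passage 14 left out none of the list rose in edgeR (10 had an unadjusted p under 0.05 with all 8 libraries), and with passage as a correlated block 1 rose and 1 fell.

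Other large rises were in low-level genes of mixed function. Prss42, a serine protease gene, was at 1.64 and 1.66 CPM (passage 4), 1.09 and 1.24 (passage 6), 3.14 and 3.21 (passage 12) and 4.01 and 4.11 (passage 14). Each late library was above each early one, and the log2 fold change was 1.36 (SE 0.17, adjusted p = 0.00212, edgeR). The minor collagen V chain Col5a3 (1.14), the amine oxidase Aoc3 (1.14), the calcium-binding protein S100a6 (1.08), mesothelin (Msln, 1.02), the growth factor Fgf15 (1.01), the scaffold protein Mpp2 (0.99), the cytochrome Cyp2s1 (0.96) and the actin regulator Micall2 (0.91) rose as well, as did C1qtnf6 (1.03). Calls of Aoc3, S100a6, Msln, Fgf15, Cyp2s1 and C1qtnf6 were lost in 2, 2, 2, 4, 5 and 5 of the 8 fits with 1 library left out, and those of Col5a3, Mpp2 and Micall2 in 0.

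The largest fall among the named and called genes was that of Aim2, a sensor of cytosolic DNA. It was at 37.1 and 38.8 CPM (passage 4), 22.2 and 23.03 (passage 6), 13.1 and 12.9 (passage 12) and 11.9 and 12.0 (passage 14). The early passages stood apart from each other by more than the late ones did. It fell by 1.28 (SE 0.17, adjusted p = 0.00363, edgeR), with means of 12.3 and 12.5 CPM at passages 8 and 10. Anxa1, a phospholipid-binding annexin, was at 11.6 and 10.9, 9.45 and 10.2, 6.53 and 6.08, and 4.94 and 4.78 CPM at passages 4, 6, 12 and 14. Its libraries did not overlap between groups, and it fell by 0.91 (SE 0.11, adjusted p = 0.00210).

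Ubtfl1, a gene of preimplantation embryos, fell by 1.21 (SE 0.16) from 2.60 to 2.97 CPM early to 0.98 to 1.5 late. The neurotrophin receptor Ntrk3 fell by 0.99, the surface protein Cd180 by 0.84, the chemokine Ccl25 by 0.79, the growth factor-binding protein Igfbp7 by 0.77 and the calcium buffer Calb2 by 0.80. The serotonin receptor Htr5a (-0.95), the kallikrein Klk1 (-0.86) and the forkhead gene Foxd1 (-0.77) fell too. The calls of Htr5a, Klk1, Foxd1 and Calb2 were lost in 6, 5, 7 and 2 of the 8 fits with 1 library left out.

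Genes that hold the naive state changed in small steps, and more of them fell than rose. Of 30 tested core and naive pluripotency genes 1 rose and 5 fell (3.38% and 3.58% of all genes), with a median of -0.06. At an unadjusted p under 0.05 there were 3 rises and 9 falls, and DESeq2 called 2 rises and 8 falls. With passage as a correlated block 0 rose and 1 fell, and with either library of passage 12 or of passage 14 left out there was 1 fall, as there was without replicate 2 of passage 6 (2 without its replicate 1). Klf4, a factor of the naive network, was at 285 and 280 CPM (passage 4), 272 and 262 (passage 6), 234 and 232 (passage 12) and 205 and 210 (passage 14). The groups did not overlap and it fell by 0.32 (SE 0.05, adjusted p = 0.00604, edgeR). Nanog fell by 0.12 (SE 0.03, adjusted p = 0.0413) and Esrrb by 0.15 (SE 0.04, adjusted p = 0.0440), and these 2 calls were lost in 8 and 6 of the 8 fits with 1 library left out. Nr0b1 (-0.38) and Nr5a2 (-0.19), both nuclear receptors of the naive network, fell, and Prdm14, a repressor of fibroblast growth factor signalling, rose by 0.16, calls lost in 6, 6 and 7 of those fits. Pou5f1 (-0.13, SE 0.07, adjusted p = 0.271), Sox2 (-0.03, SE 0.05, adjusted p = 0.752) and Zfp42 (-0.16, SE 0.05, adjusted p = 0.0683) were not called.

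The Nodal antagonists Lefty1 and Lefty2 rose while their pathway ligand fell. Lefty2 was at 183 and 189 CPM (passage 4), 186 and 192 (passage 6), 242 and 242 (passage 12) and 224 and 223 (passage 14). Both early passages lay below both late ones with little spread, and it rose by 0.31 (SE 0.04, adjusted p = 0.00191, edgeR), also without passage 14 (adjusted p = 0.0333). Lefty1 rose by 0.70 (SE 0.08, adjusted p = 0.00172), from 8.21 to 9.99 CPM early to 14.2 to 15.6 late. Nodal itself fell by 0.22 (SE 0.06, adjusted p = 0.0458), a call lost in 6 of the 8 fits with 1 library left out. Of 17 formative and primed genes tested 4 rose and 0 fell (7 and 0 at an unadjusted p under 0.05; median 0.18; background 3.38% and 3.58%): Fgf15, the secreted Wnt modulator Sfrp2 (0.47), the kinase Pim2 (0.29) and the DNA methyltransferase Dnmt3a (0.26). With either library of passage 6 or of passage 14 left out the rises were 2, and with passage as a correlated block 1 rose. Of 14 tested mesoderm and definitive endoderm genes 3 rose and 2 fell, Lefty1, Lefty2 and Nodal among them, with a median of 0.08, and with passage as a correlated block 2 rose and 0 fell. With either library of passage 14 left out 2 rose and 0 fell.

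Dnmt3a, which methylates DNA anew, was at 77.0 and 73.7 CPM (passage 4), 73.3 and 74.9 (passage 6), 87.6 and 89.5 (passage 12) and 88.3 and 91.5 (passage 14). The late libraries were all above the early ones, with an SE of 0.04 and an adjusted p of 0.00389 by edgeR. Its cofactor Dnmt3l rose by 0.52 (SE 0.13, adjusted p = 0.0424), with 68.3 and 67.3 CPM (passage 4) against 97.7 and 100.2 (passage 6), 108 and 107 (passage 12) and 131 and 132 (passage 14), and the call was lost in 6 of the 8 fits with 1 library left out. The oxidase Tet3 rose by 0.36 and Zfp57, which guards methylation at imprints, fell by 0.25, each call lost in 2 of those fits. Dnmt3b (0.23, SE 0.14, adjusted p = 0.341) and Uhrf1 (0.06, SE 0.04, adjusted p = 0.399) were not called, and the 21 tested genes of this machinery had a median of -0.02.

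Imprinted genes, expressed from 1 parental copy, gave 3 rises and 8 falls among 45 tested (3.38% and 3.58% of all genes), with a median of -0.00282. With passage as a correlated block 1 rose and 1 fell. Without replicate 1 or 2 of passage 6 the falls were 4 or 2, without replicate 1 or 2 of passage 12 they were 4 or 1, and with either library of passage 14 left out there was 1. Peg10, a paternally expressed gene derived from a retrotransposon, was at 756 and 724 CPM (passage 4), 627 and 661 (passage 6), 517 and 512 (passage 12) and 506 and 499 (passage 14). It fell by 0.45 (SE 0.05, adjusted p = 0.00172, edgeR), and the late libraries lay within a narrow range below the early ones. Grb10, an adaptor that restrains growth signalling, rose by 0.43 (SE 0.07, adjusted p = 0.00948), and the scavenging receptor Igf2r by 0.27 (lost in 6 of the 8 fits with 1 library left out). Kcnq1ot1 (-0.26), Zrsr1 (-0.24), Impact (-0.17), Mest (-0.15) and Dio3 (-0.46) fell, each call lost in 3 to 6 of the 8 fits with 1 library left out. H19 was at 11.4 and 10.3 CPM (passage 4), 31.7 and 32.3 (passage 6), 29.9 and 31.2 (passage 12) and 35.2 and 35.4 (passage 14), so that only passage 4 stood apart, and it was not called (0.61, SE 0.32, adjusted p = 0.251).

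A few lipid synthesis genes rose, in small steps. Of all genes tested 3.38% rose and 3.58% fell, and 3582 of 13986 had an unadjusted p under 0.05 in either direction. Of 25 cholesterol synthesis genes 4 rose and 0 fell (17 and 0 at an unadjusted p under 0.05), with a median of 0.18: Lss (0.31), Sqle (0.27), Fdps (0.26) and Mvd (0.25), enzymes from the mevalonate steps to lanosterol. The list median was 0.10 and 0.09 against passage 4 and 0.27 and 0.29 against passage 6, which itself lay 0.19 below passage 4. Without replicate 1 or 2 of passage 4 the rises were 9 or 8, and with either library of passage 14 left out they were 2. Fdps was at 132 and 134 CPM (passage 4), 129 and 125 (passage 6), 158 and 149 (passage 12) and 156 and 161 (passage 14), with no overlap (SE 0.04, adjusted p = 0.00475, edgeR). Of the 22 genes tested for fatty acid synthesis, 3 rose and 0 fell (9 and 2 at an unadjusted p under 0.05): Fasn (0.31), Acaca (0.21) and Me1 (0.27), the synthase, the carboxylase that feeds it and a source of NADPH, and 6 rose with either library of passage 4 left out. The median of this list was 0.12, at -0.00582 and 0.0084 against passage 4 and 0.20 and 0.16 against passage 6. With passage as a correlated block 3 genes of each lipid list rose and 0 fell. Fasn went from 657 to 733 CPM early to 815 to 894 late (SE 0.05, adjusted p = 0.00525). Among 23 targets of the antioxidant factor NRF2, 5 rose and 0 fell (9 and 4 at an unadjusted p under 0.05), Gstm1 by 0.38, Ephx1 by 0.30, Me1 by 0.27, Tkt by 0.15 and Sqstm1 by 0.14. The calls of Lss, Mvd, Ephx1, Tkt and Sqstm1 were lost in 2, 3, 1, 3 and 6 of the 8 fits with 1 library left out.

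In the median, the genes of glycolysis and of the hypoxia response were lower at passage 6 than at the other passages compared. The median of the 33 tested was 0.36, but it was 0.02 and 0.16 against passage 4 and 0.58 and 0.74 against passage 6, and passage 6 lay 0.63 below passage 4. Bnip3, a mitophagy receptor induced by low oxygen, was at 75.1 and 75.6 CPM (passage 4), 28.5 and 29.8 (passage 6), 82.9 and 80.0 (passage 12) and 115.9 and 113.1 (passage 14). Only passage 6 stood low, and its change of 0.91 (SE 0.30) was not called (adjusted p = 0.0866, edgeR). The glucose transporter Slc2a1 was at 431 and 433, 267 and 261, 454 and 450, and 557 and 549 CPM at passages 4, 6, 12 and 14 and was likewise not called (0.53, SE 0.16, adjusted p = 0.0715). In all 3 genes of the list rose (Ankrd37, 0.57, Higd1a, 0.37, and Pfkm, 0.36) and 1 fell (Ak4, -0.29), against 3.38% and 3.58% of all genes. At an unadjusted p under 0.05 there were 22 rises and 1 fall. Without replicate 1 or 2 of passage 4 the rises were 12 or 16, with either library of passage 6 left out they were 1, without replicate 1 or 2 of passage 12 they were 2 or 1, and with either library of passage 14 left out they were 0. Which feature of the passage 6 cultures the low levels there go with was not tested. In the T0901317-treated arm, between the same passages, 22 of the 33 genes rose and 1 fell, with a median of 0.28. Of all genes tested there 5.22% rose and 4.91% fell, or 2 and 7 genes with passage as the unit. How the treated count of this list depends on single libraries or passages was not tested.

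**Figure D4:**
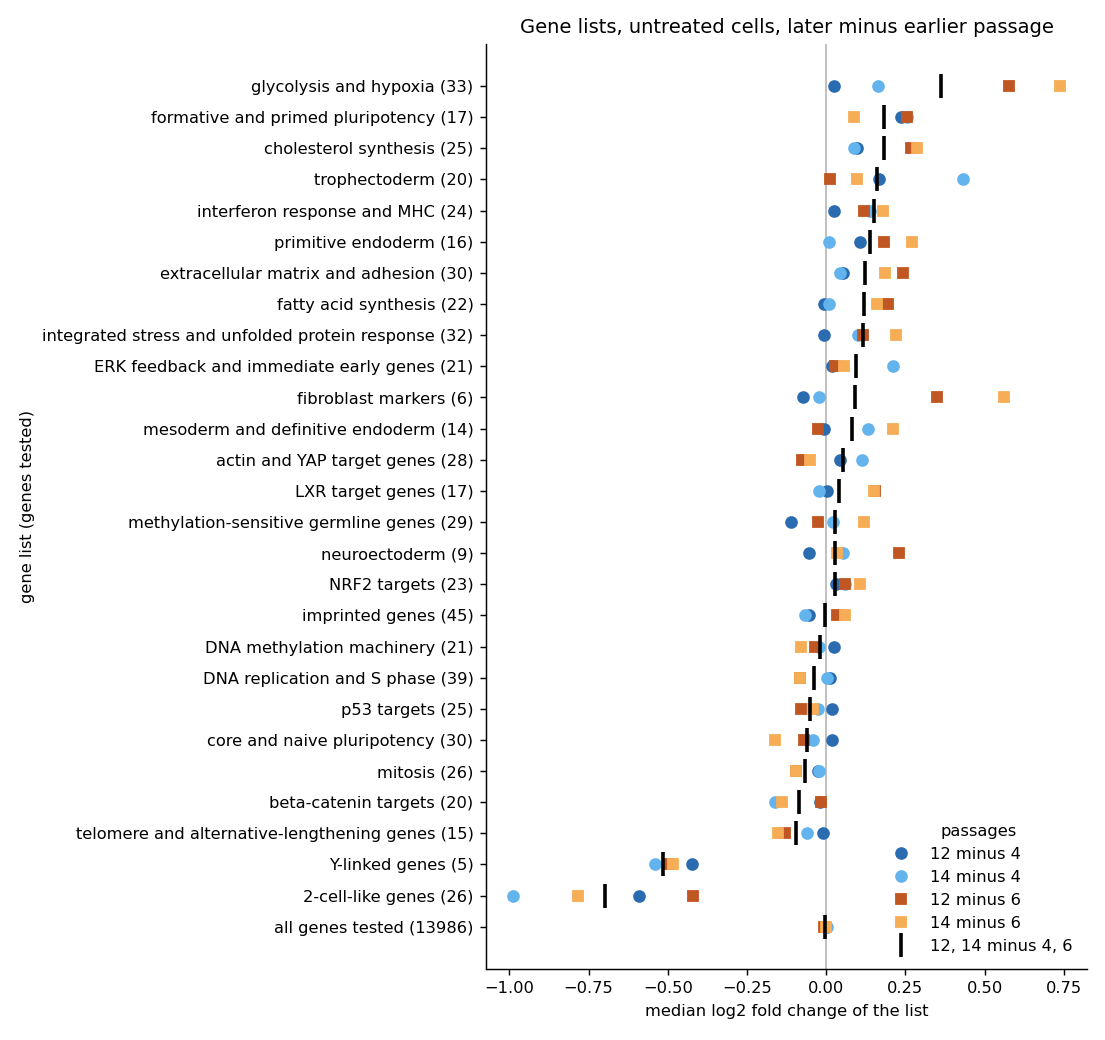
Median log2 fold change (x axis) of each gene list (y axis, with the number of genes tested) in the 4 single contrasts of a later with an earlier untreated passage (blue circles against passage 4, orange squares against passage 6) and in the 4 against 4 comparison (black bars). The 2-cell-like and Y-linked lists lie at -0.42 or lower in every contrast, and the contrasts of the glycolysis and hypoxia list run from 0.02 to 0.74.

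The Y-linked genes moved in both directions. E14 carries a Y chromosome, whose broadly expressed genes pair in function with X-linked partners. Of 5 Y-linked genes tested 3 fell and 2 rose, against 3.58% and 3.38% of all genes. These calls held with any 1 library left out. With passage as a correlated block 3 fell and 1 rose, without both libraries of passage 14 1 fell and 0 rose, and with passage as the unit 0 were called. Ddx3y, an RNA helicase, was at 95.4 and 95.3 CPM (passage 4), 99.9 and 102.9 (passage 6), 69.1 and 66.0 (passage 12) and 61.0 and 63.2 (passage 14). The gap between the groups was wider than the range within either, and it fell by 0.60 (SE 0.05, adjusted p = 0.000410, edgeR; 0.0333 without passage 14). Eif2s3y, a subunit of a translation initiation factor, fell by 0.54 (SE 0.05, adjusted p = 0.000522) from 57.5 to 66.0 CPM early to 40.6 to 42.2 late. Uty, a histone demethylase relative, fell by 0.52 (SE 0.07, adjusted p = 0.00389).

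The other pair rose. Uba1y, a ubiquitin-activating enzyme known from the male germ line, was at 8.27 and 8.23 CPM (passage 4), 8.36 and 8.03 (passage 6), 10.8 and 12.3 (passage 12) and 16.7 and 16.8 (passage 14). It rose by 0.78 (SE 0.13, adjusted p = 0.00934, edgeR), and passage 14 stood above passage 12. Zfy1, a zinc finger gene, rose by 1.62 (SE 0.25, adjusted p = 0.00644) from 0.29 to 0.44 CPM early to 0.86 to 1.46 late. At passage 0 the mean of Uba1y was 20.1 CPM and that of Ddx3y 93.0 CPM. The share of cells that carry a Y chromosome was not measured.

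**Figure D5:**
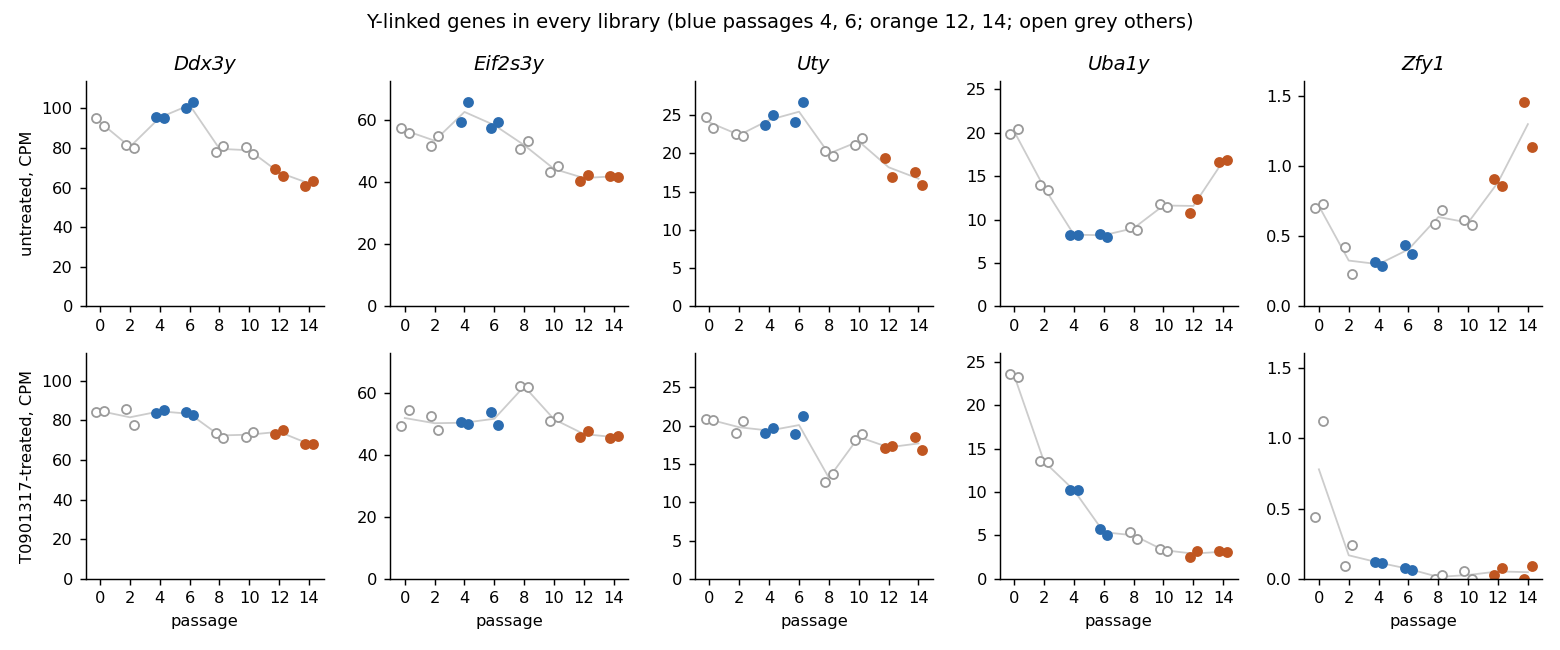
CPM (y axis) against passage (x axis) of 5 Y-linked genes in every untreated (top) and T0901317-treated (bottom) library, with passages 4 and 6 in blue, 12 and 14 in orange and other passages as open grey points. In untreated cells Ddx3y, Eif2s3y and Uty are lower and Uba1y and Zfy1 higher in the orange points, and in treated cells Uba1y falls to 2.56 to 3.23 CPM.

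In the lists that remain, 0 to 4 genes were called, where 3.38% of all genes tested rose and 3.58% fell. Of 39 DNA replication genes 1 rose and 2 fell (2 and 12 at an unadjusted p under 0.05, 1 and 5 in DESeq2), and of 26 mitosis genes 0 rose and 2 fell (1 and 9 at an unadjusted p under 0.05, 0 and 4 in DESeq2). Of 25 p53 targets 1 rose and 0 fell (3 and 6 at an unadjusted p under 0.05, and 1 and 3 of 26 tested in DESeq2). Of 32 stress response genes 1 rose, the serine synthesis enzyme Psat1 (0.33), and 0 fell (12 and 0 at an unadjusted p under 0.05). With either library of passage 6 or of passage 14 left out, 0 of these stress response genes rose. Of 21 ERK feedback genes 0 rose or fell in edgeR, with 1 up and 1 down at an unadjusted p under 0.05, and DESeq2 called 0 of 23. Among 20 targets of beta-catenin, which CHIR99021 stabilises, the cyclin Ccnd2 rose by 0.70 and Sp5 (-0.47) and Notum (-0.41) fell. None of the 20 was called with passage as a correlated block (adjusted p = 0.148, 0.227 and 0.0923 for these genes in limma voom) or in edgeR with either library of passage 14 left out. Of 17 targets of the liver X receptors 2 rose, the lipase Lpl (0.32) and the transporter Abca2 (0.30), and 0 fell, with calls lost in 1 and 6 of the 8 fits with 1 library left out and both lost with passage as a correlated block (adjusted p = 0.125 for each in limma voom). Of 28 actin and YAP target genes S100a6 rose and Anxa1 and Amotl2 (-0.19) fell, of 15 telomere genes Zscan4c fell, and of 9 neuroectoderm genes Nes rose and the tubulin Tubb3 (-0.23) fell. Of 29 methylation-sensitive germline genes 1 rose (Piwil2, 0.45) and 3 fell, and with either library of passage 14 left out 0 rose and 1 fell. Of 20 trophectoderm genes 2 rose, Hand1 (1.32, at 0.22 to 0.40 CPM early and 0.52 to 0.96 late) and Ascl2 (0.86), calls lost in 3 and 5 of the 8 fits with 1 library left out. By chromosome, the 490 tested genes of chromosome 12 had 7 rises and 38 falls (7.76% lower, against 3.58% of all genes). Their median was -0.05 (-0.05 to -0.06 in the 4 single contrasts), and 0.01 in treated cells. Chromosome 13 had 7 rises and 26 falls among 480 genes (5.42% lower), and 5.22% and 5.10% of the genes of chromosomes 3 and 18 fell. The medians of the autosomes other than 12 and of X lay between -0.04 and 0.01.

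The same passages of the T0901317-treated arm share no library with the comparison above. There, 736 genes rose and 692 fell (5.22% and 4.91% of 14088 tested), or 2 and 7 with passage as the unit. Leaving out replicate 1 or 2 of treated passage 12 gave 351 and 313 or 342 and 305, and leaving out replicate 1 or 2 of passage 14 gave 371 and 323 or 427 and 392. Of the 468 genes that rose in untreated cells and were tested in both arms, 150 rose and 4 fell in treated cells, and 402 (85.9%) had the same sign. Of the 496 that fell, 119 fell and 4 rose, and 378 (76.2%) had the same sign. The shared calls were 20.5% of the genes that rose and 17.2% of those that fell in treated cells, and across 13766 genes, which are not independent, Pearson's r of the changes was 0.479. Aim2 (-1.26, adjusted p = 7.67e-05), Anxa1 (-1.07, adjusted p = 0.000783), Col5a1 (0.56, adjusted p = 0.000291), Col4a1 (0.51, adjusted p = 0.00402), Klf4 (-0.32, adjusted p = 0.000298), Peg10 (-0.64, adjusted p = 0.00732) and Prss42 (0.99, adjusted p = 0.00217) were called in the same direction in treated cells by edgeR.

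The difference between the arms was tested itself. The change differed in 78 genes (0.542% of 14398 tested), 28 with a higher and 50 with a lower value in untreated cells, and 45 of the 78 were called in the untreated comparison. With passage as the unit 0 were called. Leaving out 1 library gave 8 and 12 (replicate 2 of untreated passage 14) to 87 and 111 (replicate 1 of treated passage 6). Uba1y rose in untreated cells and fell in treated ones, from 10.2 and 10.2 CPM (passage 4) and 5.73 and 5.01 (passage 6) to 2.56 and 3.23 (passage 12) and 3.17 and 3.08 (passage 14), a difference in log2 change of 2.14 (SE 0.28, adjusted p = 0.00176, edgeR). Xlr3c, an X-linked gene of a multicopy family, did the same, rising by 0.48 in untreated and falling by 1.09 in treated cells (difference 1.56, SE 0.21, adjusted p = 0.00176). Ddx3y and Eif2s3y fell in both arms, by 0.24 and 0.14 in treated cells, and by more in untreated ones (adjusted p = 0.0141 and 0.00589 for the difference).

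Of the 2-cell-like genes, 0 of the 21 tested in treated cells rose or fell (edgeR; median 0.00447). The level there was low: Zscan4c was at 5.32 to 7.55 CPM early and 5.45 to 9.13 late. The difference between the arms was called for 1 member, Tmem92 (-1.03, SE 0.20, adjusted p = 0.0238, edgeR), and was not for Zscan4a (-0.82, SE 0.20, adjusted p = 0.0747), Zscan4d (adjusted p = 0.0902) and Zscan4c (-0.85, SE 0.22, adjusted p = 0.0877). Among the lipid enzymes Fdps was at 218 and 234 CPM at treated passage 4, 210 and 213 (passage 6), 208 and 203 (passage 12) and 209 and 214 (passage 14). Its change there was -0.07 (SE 0.04, adjusted p = 0.266), and the difference between the arms was 0.33 (SE 0.05, adjusted p = 0.00822). No other cholesterol synthesis gene was called for a difference between the arms.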

How the data were processed

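Expected counts per gene symbol were estimated by the authors with RSEM, per the file headers, and deposited without normalization. Of their values 0.837% were fractional, and all were rounded. A deposited table in TPM, corrected for gene length by the authors per the file headers, was used only for alternatives. The submitters' processing notes name STAR, Cufflinks 2.2.1, HTSeq 0.12.4, DESeq2, edgeR, RSEM and mm9. Annotation and strand setting are not given in the sources used here. RSEM divides reads shared by near-identical genes, and overlapping or antisense genes may share reads.

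The 8 untreated libraries were fitted with edgeR 4.0.16 (R 4.3.3): TMM scaling, filterByExpr, quasi-likelihood test of 4 later against 4 earlier libraries, and Benjamini-Hochberg adjustment over all 13986 genes with a threshold of 0.05. SE is the log2 fold change divided by the root of the F statistic. Single contrasts came from a fit with a mean per passage. The treated arm and the difference of the arms (16 libraries) were fitted likewise. Scripts were tested on simulated data.

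Alternatives were other scalings (RLE, upper quartile, library totals), filters, DESeq2 1.42.0, limma 3.58.1 on log2(TPM + 1) or log2(TPM + 0.1), a test against a fold of 1.2, passage as the unit, a replicate block, pairs of passages as a term, wider fits and leaving out each library. Leaving out each passage, limma voom with a passage block, neighbouring passages as units and agreement of the 4 single contrasts were added after seeing the data.

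The 28 gene lists (691 genes, 588 tested; mitochondrially encoded genes had no entry) and the comparison were chosen with earlier results of these data known. The naming rule took, from called genes averaging 1 log2 CPM or more and without overlap, the 14 that rose most and the 14 that fell most, passing over placeholder symbols. It added 3 genes per list by smallest p, 5 called differences of the arms in each direction and 26 genes chosen by name. A further condition, a call with passage as the unit, was met by 0 genes and was dropped as the rule allowed. Of the genes the rule took, 2 are not reported here. Other list members that are named were chosen after their values were seen. Chromosomes came from RefSeq names (13771 of 13986 genes matched). Promoters came from the RefSeq table on GRCm38.p6, in which 10950 of the tested genes had an entry.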

Additional observations from a re-analysis of the deposited data

Results flagged for a closer look

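In 5 of 252 groups of 4 libraries examined for the named genes, 1 library stood apart from the other 3. Its gap, as a share of the group's range, was above Dixon's critical value. That value is set for about 1 in 20 groups of independent libraries. Libraries of a passage were more alike than passages, so this rate does not apply here. Among the late libraries the gap was 0.933 of the range for the DNA ligase Lig1 (lowest in replicate 1 of passage 14, 388 CPM against 397 for the next), 0.892 for Tet3 (highest in replicate 1 of passage 14), 0.855 for Birc5 (lowest in replicate 2 of passage 12) and 0.853 for Shmt2 (highest in replicate 2 of passage 14). Among the early libraries it was 0.860 for Ccl25 (highest in replicate 2 of passage 6, 6.68 CPM against 5.80).

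For 14 named genes the change from early to late passages differed between untreated and treated cells by edgeR's test of the difference. The value (untreated minus treated, log2) was 2.14 for Uba1y, 1.72 for the zinc finger gene Zfp951, 1.56 for Xlr3c, 0.87 for Xlr4a, 0.80 for Xlr3b and 0.33 for Fdps. It was -1.03 for Tmem92, -0.91 for Calb2, -0.77 for the acetyl-CoA synthetase Acss1, -0.62 for Akap5, -0.59 for the retinoic acid-binding Crabp1, -0.47 for Sohlh2, -0.40 for Eif2s3y and -0.36 for Ddx3y. The Xlr genes are copies of 1 family, and their reads may be shared.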

How the results depend on the processing

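The counts of 473 rises and 500 falls moved by over 1.5 times with many settings. They were 775 and 783 with DESeq2, 311 and 195 with limma on log2(TPM + 1), 308 and 189 with log2(TPM + 0.1), 9 and 12 against a fold of 1.2, 0 and 0 with passage as the unit or with 4 pairs of neighbouring passages as units, 77 and 71 with a passage block in voom, 2602 and 2912 in a fit of all 32 libraries, 2739 and 2745 in one of the 16 untreated libraries, and 273 and 312 where all 4 single contrasts had to be called. Single contrasts gave 1139 and 1123 (12 against 4), 1671 and 1652 (14 against 4), 2306 and 2514 (12 against 6) and 3068 and 3379 (14 against 6). Without both libraries of a passage they were 2573 and 2603 (4), 803 and 889 (6), 192 and 194 (12) and 2 and 1 (14), and without 1 library 99 to 638 and 89 to 601. Other scalings and filters kept both within 1.5 times. With a replicate block they were 240 and 234, but the replicate numbers pair nothing in the labels, and the differences between the 2 libraries of a passage correlated across passages at -0.093 to 0.099. Treated counts (736 and 692) were 2 and 7 with passage as the unit, 1193 and 1227 with pairs of passages as a term and 342 to 671 and 305 to 702 without 1 library, and the falls were 412 with a replicate block. Counts for the difference of the arms (28 and 50) were 0 and 0 with passage as the unit, 16 and 23 with a replicate block, 69 and 109 with pairs of passages as a term and 8 to 87 and 12 to 111 without 1 library. The causes were not tested.

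Of the 89 named and called genes, 0 changed sign to a call the other way under any alternative. Named genes not called 4 against 4 were called the other way in single contrasts: against passage 6 at passage 12, Btg3 (1.92), Cdkn1a (0.13), Meg3 (0.21), Dnmt3b (-0.15), Igf2 (-0.44) and Krt8 (-0.17), and against passage 4, Myc (0.74 at passage 12, 0.37 at passage 14, 0.57 without passage 6), Sox2 (0.10), Trp53 (0.12) and Zfp951 (0.33). Depth was not thinned, and changes in genes near 1 CPM rest on few counts per library.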
